A study of Mus musculus with 9 samples.

Results

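Genes that remodel, mark or read chromatin were followed in the mid-foregut of mouse embryos over the hours in which the lung buds are induced. The members were all genes whose symbol names a SMARC, ARID, CHD, KDM, KMT, HDAC, CBX, EZH or BRD protein, with Bmi1, Eed, Suz12 and Pbrm1 added and the Y-linked Kdm5d left out, and they were found by symbol, without use of their values. They came to 70 of the 12393 genes that had a probe set of their own on the array, and 62 of the 70 were bright enough to be tested. The tissue was wild-type mid-foregut, the stretch between the pharyngeal arches and the liver, taken after removal of the neural tube and heart, at 16-20 somites (labelled E8.5), 21-25 somites (E9.0) and 26-30 somites (E9.5), with 3 biological replicates at each stage. According to the labels 5 to 10 foreguts were pooled, and 100 ng of their RNA went through 2 rounds of amplification before hybridisation to an Affymetrix array. All groups shared the wild-type genotype, and the labels name no treatment.

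Chromatin remodellers of the SWI/SNF, ISWI and CHD families use ATP to slide, eject or exchange nucleosomes. Histone acetyltransferases and deacetylases, and lysine methyltransferases and demethylases, add and remove the marks that bromodomain, chromodomain and other reader proteins bind. The Polycomb repressive complexes PRC1 and PRC2 keep developmental regulators silent in cells that should not use them, and SWI/SNF and the MLL (KMT2) enzymes work against them at many genes. In the embryonic foregut and lung, members of these families, among them Ezh2 and the class I deacetylases Hdac1 and Hdac2, are known from mouse mutants to be needed for normal development of the epithelium.

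The values were MAS5 signals, and differences are given as log2 differences after adding 26.2 to every signal, with the standard error of the limma fit and n = 3 arrays per stage. This addition makes the differences of dim probe sets smaller than their signal ratios. The trimmed mean of signal, without the top and bottom 2% of probe sets, lay between 500.2 and 500.3 on every array. Correlations between arrays of a stage ran from 0.901 to 0.981. For 3 arrays the range of signal was narrower than on the other 6: the highest signal was between 27480 and 32584 on replicate 1 of 21-25 somites and replicates 1 and 2 of 26-30 somites, against 43792 to 61749 elsewhere, so narrow range and stage overlap in part. For actin, the 3′ control probe set exceeded the 5′ one by a ratio of 45.3 on replicate 2 of 21-25 somites and of 20.9 to 36.8 on the other 8 arrays. For Gapdh that ratio was 40.9 on replicate 3 of 26-30 somites, 36.4 on replicate 2 of 21-25 somites and 16.0 to 26.0 on the other 7. Of 9 foregut endoderm markers 8 were above the filter, Shh being the exception (8.20 to 23.3 as stage means), and of 8 foregut mesenchyme markers 5 were, with Foxf1, Tbx4 and Osr1 below it. Markers of other cells were also present, with Myl2 (cardiac), Apoa1 (liver and yolk sac), Pecam1 and Tie1 (both endothelial) below the filter. Summed over the 8 mesenchyme genes the signal was 1878 to 2441 at 16-20, 2082 to 3417 at 21-25 and 3369 to 3980 at 26-30 somites, so that the late arrays were above the early ones without overlap, and over the 9 endoderm genes it was 10071 to 16903, 8941 to 10133 and 9505 to 10658.5. Bright keratins weigh most in the endoderm sum, with means from 16-20 to 26-30 somites of 4675 to 2948 (Krt8) and 3636 to 1379 (Krt18). Gene by gene, 6 of the 8 tested endoderm markers had a positive log2 difference between these stages, with a median of 0.23. Summed over their lists, 9 cardiac muscle genes gave 3216 to 18308 at 16-20, 5060 to 5600 at 21-25 and 2191 to 7051 at 26-30 somites, and 7 liver and yolk sac genes gave 2436 to 34727, 1708 to 8666 and 1417 to 2917, respectively. On replicate 2 of 16-20 somites the tested cardiac genes had a median log2 deviation from their own means of 1.74. The tested liver and yolk sac genes had 2.11 there. On replicates 1 and 3 of that stage these medians were -0.60 and 0.011 for cardiac and -0.50 and 0.21 for liver and yolk sac genes. Over the 6 erythroid genes on the array the sums were 36620.2 to 40272, 18006 to 36285 and 20639.9 to 57560, over 6 neural genes, of which Sox1, Tubb3, Elavl3 and Foxd3 were below the filter, 220.4 to 539, 393 to 816 and 491 to 708, and over 5 endothelial genes 786 to 1093, 917 to 1773 and 729.9 to 1117. The part of these cells in the results on the members was not tested. In such bulk tissue fewer cells of a type and less RNA per cell cannot be told apart.

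Over the whole interval, from 16-20 to 26-30 somites, most of the chromatin genes had somewhat higher signals at the later stage, and none passed the test. The smallest p-values belonged to Bmi1, a RING-finger subunit of PRC1 that stimulates its ubiquitin ligase activity, with a log2 difference of 1.11, and to Arid4b, a subunit of the SIN3 deacetylase complex, with 1.12. Of the 62 tested members 47 had a positive difference, which is 75.8%, against 50.8% of the 8675 genes tested, and 15 a negative one (24.2%, against 49.2%), and the median was 0.18 over the members and 0.0089 over all tested genes. At an adjusted p under 0.05 (limma with Benjamini-Hochberg adjustment over 8675 genes) 0 members were called, and of all genes 0 were called in either direction, or 0%. The smallest adjusted p of a member was 0.316, that of Bmi1, and the smallest of any gene was 0.219. At an unadjusted p under 0.05, 6 members were higher, which is 9.68% beside 6.29% of all tested genes, and 0 were lower, beside 4.85%. All 26-30 somite arrays were above all 16-20 somite arrays for 13 tested members, or 21%, beside 11.2% of all tested genes, and below them for 1 tested member, Chd8, beside 10.2%. Between arrays of a stage, the median deviation of the members from their own means had a pooled SD of 0.204. That SD is one of single arrays and not the standard error of a difference between stages. With replicate 2 of 26-30 somites left out the median difference over the members was 0.10 and 35 members were positive (56.5%, beside 47.4% of all tested genes). With replicate 3 of that stage left out it was 0.25 and 48 were positive (77.4%, beside 52.4%). Over the same interval the 5 tested foregut mesenchyme markers had a median difference of 1.11, with 3 of them higher at an unadjusted p under 0.05, and the part of the mesenchyme in the members' values was not tested.

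The 6 members below an unadjusted p of 0.05 include 2 subunits of SWI/SNF, Smarce1 and Smarcc1. Bmi1 had signals of 1226, 559 and 815 at 16-20 somites, 1184, 1388 and 1275 at 21-25 somites and 2092, 1778 and 1595 at 26-30 somites. Every later array was above every earlier one in the whole interval and also from 21-25 to 26-30 somites, so that the 3 stages stood in ascending order of their means, 866 ± 337, 1282 ± 102 and 1821 ± 251 (SD, n = 3). The log2 difference over the interval was 1.11 ± 0.27 (limma, unadjusted p = 0.00138, adjusted p = 0.316). A further Bmi1 probe set, also bright, gave 0.59, again with no overlap between the early and the late arrays. Its second step was only 0.067. On that probe set the highest array was replicate 1 of 21-25 somites (1843, against 1730, 1307 and 1315 at 26-30 somites).

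Arid4b, which with its relative Arid4a binds the retinoblastoma protein, gave 645, 502 and 360.1 at 16-20 somites, 1485, 917 and 724 at 21-25 somites and 1152, 1296 and 883 at 26-30 somites. The 16-20 somite arrays lay below all 6 others, which overlapped with each other. Its difference was 1.12 ± 0.30 (limma, unadjusted p = 0.00266, adjusted p = 0.317), and a dim further probe set, just above the filter, gave -0.0082.

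Smarce1 encodes an HMG-box subunit of the BAF and PBAF forms of SWI/SNF. Its signals were 2887, 1606 and 2826 at 16-20 somites, 3961, 1431 and 3363 at 21-25 somites and 4592, 5718 and 3860.2 at 26-30 somites. The late arrays were 3 of the 4 highest, beside replicate 1 of 21-25 somites, and replicate 2 of 21-25 somites was the lowest of all. The difference was 0.98 ± 0.36 (limma, unadjusted p = 0.0199, adjusted p = 0.372), whereas a less bright Smarce1 probe set gave -0.25, with overlapping groups.

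Smarcc1, the scaffold around which SWI/SNF assembles, had signals of 792, 918 and 815 at 16-20 somites, 1834, 1143 and 1070.0 at 21-25 somites and 1800.4, 1409 and 993 at 26-30 somites. Early arrays were tightly grouped and lay below all the others. The difference was 0.68 ± 0.27 (limma, unadjusted p = 0.0278, adjusted p = 0.391). Without the 3 narrow-range arrays it was 0.23, since replicate 3, the lowest of the 26-30 somite arrays, then stood alone for its stage.

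Smarcad1 is a remodelling ATPase that acts behind replication forks and at broken DNA ends. Signals of 2351, 1553 and 2352 at 16-20 somites, 3594, 4444 and 2584 at 21-25 somites and 2887, 3845 and 3066 at 26-30 somites were measured for it. The 16-20 somite arrays again were the 3 lowest, and the later stages overlapped. The difference was 0.66 ± 0.26 (limma, unadjusted p = 0.0267, adjusted p = 0.391). A dimmer Smarcad1 probe set gave 0.045, with overlapping groups.

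Kmt2e, a SET-domain protein of the MLL family that binds methylated histone tails through its PHD finger, gave 673, 386 and 616 at 16-20 somites, 1925, 681 and 1025 at 21-25 somites and 1166, 1069 and 812 at 26-30 somites. Replicate 1 of 21-25 somites was far above the rest, and the early arrays were the lowest 3, the highest of them lying close to the next array. The difference was 0.86 ± 0.35 (limma, unadjusted p = 0.0292, adjusted p = 0.395), and it was 0.56 without the 3 narrow-range arrays.

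**Figure D1:**
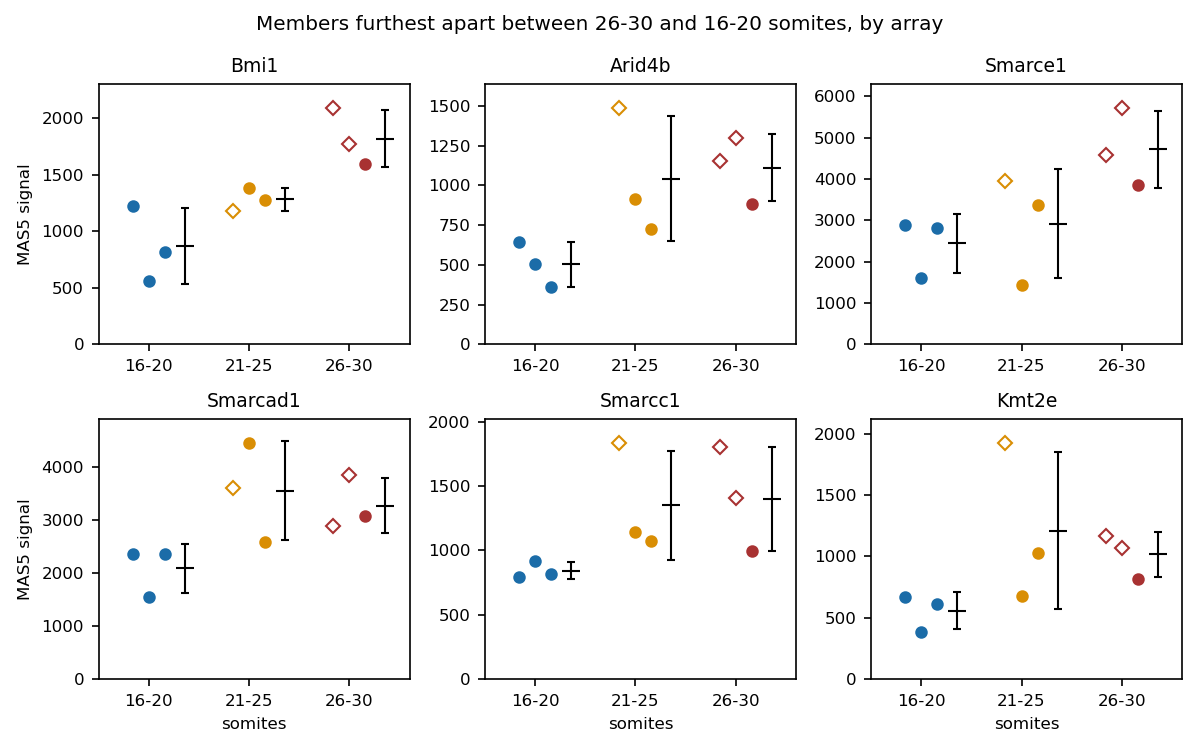
MAS5 signal (linear axis from 0) of Bmi1, Arid4b, Smarce1, Smarcad1, Smarcc1 and Kmt2e on each of the 9 arrays by somite stage; open diamonds are the 3 arrays of narrow range, filled points the other 6, and the black bar is the stage mean ± SD (n = 3). In each panel all 3 arrays of 26-30 somites sit above all 3 of 16-20 somites, while the 21-25 somite arrays spread widely for Kmt2e (681 to 1925) and Smarce1 (1431 to 3961).

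The stretches upstream of the transcription start are shown for 4 members that had low p-values in one of the comparisons and whose starts are the outermost of their gene: Bmi1 and Smarcc1, with the later arrays above the earlier ones over the whole interval, and Chd6 and Ezh1, whose signals were highest at 21-25 somites. Each is the 250 bases before the start from RefSeq in GRCm38.p6, 5′ to 3′ on the gene's strand, at chr2:18676768-18677017, plus strand (Bmi1), chr9:110131774-110132023, plus strand (Smarcc1), chr2:161109087-161109336, minus strand (Chd6) and chr11:101226464-101226713, minus strand (Ezh1). Capitals mark matches, on either strand and with overlapping matches counted, to 6 motifs. These were the E-box, spelled CACGTG, the CCAAT box, spelled by its name, the GC box, spelled GGGCGG, the TATA box, spelled TATAAA, an ETS-type motif, spelled CCGGAAG, and E2F-type motifs, spelled TTTGGCG or else TTTCCCG.
Bmi1: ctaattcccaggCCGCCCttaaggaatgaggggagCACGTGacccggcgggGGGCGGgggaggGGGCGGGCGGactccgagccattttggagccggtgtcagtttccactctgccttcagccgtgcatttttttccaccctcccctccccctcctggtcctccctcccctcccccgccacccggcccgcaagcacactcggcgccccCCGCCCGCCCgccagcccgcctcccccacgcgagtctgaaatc
Smarcc1: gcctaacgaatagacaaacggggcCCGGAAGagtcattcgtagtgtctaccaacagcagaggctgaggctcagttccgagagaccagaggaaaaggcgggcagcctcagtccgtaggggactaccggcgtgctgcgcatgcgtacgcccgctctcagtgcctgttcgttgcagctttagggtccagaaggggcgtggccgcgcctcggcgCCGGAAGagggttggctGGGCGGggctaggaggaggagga
Chd6: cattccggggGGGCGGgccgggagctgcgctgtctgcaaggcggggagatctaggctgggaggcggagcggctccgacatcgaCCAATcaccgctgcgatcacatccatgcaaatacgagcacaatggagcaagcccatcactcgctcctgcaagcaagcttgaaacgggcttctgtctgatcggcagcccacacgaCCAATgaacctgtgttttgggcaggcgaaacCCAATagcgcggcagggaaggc
Ezh1: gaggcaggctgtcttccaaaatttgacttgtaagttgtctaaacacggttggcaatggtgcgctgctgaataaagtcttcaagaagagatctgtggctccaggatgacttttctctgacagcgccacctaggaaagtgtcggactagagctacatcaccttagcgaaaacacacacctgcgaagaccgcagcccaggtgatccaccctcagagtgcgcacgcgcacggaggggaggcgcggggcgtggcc
In these letters Bmi1 has 6 GC boxes, some overlapping, and 1 E-box, Smarcc1 has 2 ETS-type matches and 1 GC box, Chd6 has 3 CCAAT matches and 1 GC box, and Ezh1 has no match to any of the motifs. Smarcad1 and Smarcb1 also had low p-values in one of the comparisons and an outermost start, and are not shown. The stretch of Smarcad1 has no match to any of the motifs, and that of Smarcb1 has 2 GC boxes. RefSeq promoters were matched for 57 members, that is, for all but Arid2, Kdm5a, Hdac3, Arid3a, Kdm3b, Chd7, Kmt2e, Kdm4b, Hdac1, Cbx2, Chd1, Brd8 and Smarce1. The GC box was present for 44 of the 57, which is 77.2%, beside 64.2% of 7051 tested genes and 32.7% of all 32851 promoters of the table. An E2F-type match was present for 9 (15.8%, beside 8.14% and 3.92%), an E-box for 7 (12.3%, beside 10.0% and 6.02%), CCAAT for 23 (40.4%, beside 40.6% and 33.8%), an ETS-type match for 6 (10.5%, beside 15.8% and 6.91%) and TATAAA for 3 (5.26%, beside 8.41% and 12.4%). These shares count a member or tested gene as matched if any of its promoters matched, while the share of the table is over promoters. The median count of CpG dinucleotides per 250 bases was 20.5 over promoters of members, 15 over promoters of tested genes and 6 over all promoters. For these medians a gene with several promoters was counted once for each. These matches are descriptions of sequence and were not set against the expression values.

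Among the families, the SWI/SNF subunits had the highest median difference over the interval, 0.54, with 10 of 12 positive. Close to it were the ISWI and other SMARC ATPases (0.53, 3 of 4 positive) and the ARID factors outside SWI/SNF (0.50, 3 of 3). The median deviation of the SWI/SNF genes from their own means was -0.30, -0.025 and -0.12 on the 16-20 somite arrays. It was 0.49 and 0.37 on replicates 1 and 2 of 26-30 somites, both of narrow range, and -0.23 on replicate 3. The forms of SWI/SNF include BAF, defined by Arid1a or Arid1b, and PBAF, defined by Pbrm1, Arid2 and Brd7, each built on 1 of the ATPases Smarca2 (BRM) and Smarca4 (BRG1). Besides Smarce1 and Smarcc1, Smarcd1 (0.48), Smarcd2 (0.17) and Smarcd3 (0.11), alternative subunits that link the complex to transcription factors, had positive differences, with all late Smarcd2 arrays (6637, 6160.0 and 7371) above the early ones (5751, 6080 and 6058). Further Smarcd2 probe sets gave 0.072 and 0.0080, with overlapping groups. Without the 3 narrow-range arrays Smarcd1 was at -0.011 and Smarcd3 at -0.62. Smarcd3 was also negative without replicate 3 of 16-20 somites (-0.064) and without replicate 1 (-0.13) or 2 (-0.0090) of 26-30 somites. Arid1b was not on the array under a symbol of its own.

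The ATPase pair had opposite signs. For Smarca2 the signals were 264, 211 and 277 at 16-20 somites, 516, 734 and 283 at 21-25 somites and 411, 367 and 389 at 26-30 somites. All later arrays were above the early ones, by 0.59 ± 0.30 over the interval (limma, unadjusted p = 0.0683, adjusted p = 0.469). Smarca4, the ATPase that early mouse embryos cannot do without, gave 2604, 3225 and 3349.9 at 16-20 somites, 1733, 2753 and 2447 at 21-25 somites and 2087, 2052 and 2702 at 26-30 somites. Early and late arrays overlapped through replicate 1 of the early and replicate 3 of the late stage, with a difference of -0.42 ± 0.24 (limma, unadjusted p = 0.0978, adjusted p = 0.51). The log2 ratio of Smarca2 to Smarca4 within an array was 1.01 higher at 26-30 than at 16-20 somites, with no overlap between the stages; the exact permutation test, two-sided, gave p = 0.1, the smallest that 3 arrays against 3 can give, and an adjusted p of 0.2 over 4 such paralogue pairs. A dimmer Smarca2 probe set had the other sign, -0.49, and averaging the Smarca2 probe sets gave 0.052.

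Subunits of PBAF were among the most variable members. Pbrm1, which carries a row of bromodomains, had signals of 411, 2173 and 1659 at 16-20 somites, 6836, 471 and 2468 at 21-25 somites and 3537, 3550.4 and 1404 at 26-30 somites. Its difference, 1.16 ± 0.82, was the widest of any tested member, but the spread within stages was as wide (SD on the log2 scale 1.39) and the groups overlapped (limma, unadjusted p = 0.179, adjusted p = 0.592). Its other probe sets above the filter gave -0.042 and -0.093, and without the 3 narrow-range arrays the value was 0.28, and without replicate 1 of 16-20 somites it was 0.45. Arid2, a DNA-binding subunit of PBAF, gave 599, 1798 and 1274 at 16-20 somites, 4915, 732 and 2595 at 21-25 somites and 2731, 2704 and 1141 at 26-30 somites. Like Pbrm1 it was lowest on replicate 1 of 16-20 and replicate 2 of 21-25 somites and highest on replicate 1 of 21-25 somites, and its difference was 0.86 ± 0.60.

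Brd7, the bromodomain subunit of PBAF, gave 669, 738 and 859.5 at 16-20 somites, 935, 264 and 718 at 21-25 somites and 951, 985 and 583 at 26-30 somites. The replicate 2 array of 21-25 somites was far below the others, and the late arrays lay on both sides of the early ones, with a difference of 0.12 ± 0.38 that turned to -0.35 without the narrow-range arrays. For Arid1a, the largest subunit of BAF, signals were 821, 1079 and 1954 at 16-20 somites, 3577, 491 and 2474 at 21-25 somites and 2392, 2074 and 1292 at 26-30 somites, a difference of 0.62 ± 0.58 with overlapping groups and a spread within stages of 0.97. It was 0.35 without replicate 1 and 0.96 without replicate 3 of 16-20 somites. A dimmer Arid1a probe set gave -0.13, with overlapping groups. Replicate 2 of 21-25 somites gave the lowest signal of Arid1a, Brd7, Smarcb1, Smarcd3 and Smarce1, and the median deviation of the 12 SWI/SNF genes from their own means was -0.85 on it.

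Smarcb1, a core subunit of BAF and PBAF and a tumour suppressor, was the one SWI/SNF gene with a p under 0.05 in the lower direction in the first step, in which 4 of the 12 had a negative difference. Its signals were 843, 1235 and 1403 at 16-20 somites, 902, 489.5 and 870.1 at 21-25 somites and 1103, 1184 and 938 at 26-30 somites. From 16-20 to 21-25 somites the difference was -0.62 ± 0.28 (limma, unadjusted p = 0.0446, adjusted p = 0.443), and from there to 26-30 somites 0.54 ± 0.28, with the late arrays all above those of 21-25 somites, which left -0.083 over the interval. Without replicate 2 of 21-25 somites the first of these was -0.35 and the second 0.27. A dimmer Smarcb1 probe set gave -0.26 in the first step, 0.69 in the second and 0.43 over the interval.

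Of the ISWI and related ATPases, Smarca5, the ISWI motor that spaces nucleosomes, had signals of 3559, 2878 and 3546 at 16-20 somites, 4967, 3343 and 4632 at 21-25 somites and 4824, 5014 and 3951 at 26-30 somites. All late arrays were above all early ones, by 0.46 ± 0.22 (limma, unadjusted p = 0.0601, adjusted p = 0.459), and its further probe sets gave 0.44 and 0.54. The paralogue Smarca1 differed by 0.59 ± 0.31, with 1 early array (1344) among the late ones (1420, 1489 and 1032). Smarcal1, which rewinds single-stranded DNA at stalled forks, had signals of 458, 620.5 and 629 at 16-20 somites, 529, 376 and 601 at 21-25 somites and 453, 523 and 334 at 26-30 somites, and with -0.37 ± 0.25 it was the only one of the 4 with a negative difference, which was -0.20 without replicate 3 of 26-30 somites.

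CHD proteins combine a chromodomain pair with a remodelling ATPase, and 5 of 6 had a positive difference with a median of 0.076. Chd6 gave 1286, 798 and 887 at 16-20 somites, 2136, 2334 and 1174 at 21-25 somites and 1289.7, 1266 and 1319 at 26-30 somites. Replicates 1 and 2 of 21-25 somites stood well above all other arrays, and the late arrays were within a narrow band. The first step was 0.88 ± 0.28 (limma, unadjusted p = 0.00852, adjusted p = 0.348), the second -0.47 ± 0.28, or -0.29 without replicate 2 and -0.78 without replicate 3 of 21-25 somites. Chd8, which binds beta-catenin and dampens Wnt targets, gave 538, 588 and 878 at 16-20 somites, 904, 242 and 749.5 at 21-25 somites and 467, 440.0 and 523 at 26-30 somites. On the probe sets used, it alone among the 62 tested members had all late arrays below all early ones, with a difference of -0.44 ± 0.39 (limma, unadjusted p = 0.287, adjusted p = 0.685). Without replicate 3 of 16-20 somites that difference was -0.23. The differences of the other CHD genes were 0.22 for Chd7, the gene mutated in CHARGE syndrome, 0.094 for Chd1l, which carries a macrodomain in place of chromodomains, 0.058 for Chd1 and 0.026 for Chd4, the ATPase of the NuRD complex, with overlapping groups for each.

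PRC1, which ubiquitinates histone H2A, was represented by Bmi1, Cbx2 and Cbx6 among the tested genes, with Cbx7 and Cbx8 too dim. Cbx2 gave -0.0039 and Cbx6 0.15, each with overlapping groups. All 4 PRC2 genes had positive differences with a median of 0.21. Ezh1, the methyltransferase typical of non-dividing cells, had signals of 161, 171 and 145 at 16-20 somites, 346, 244 and 251 at 21-25 somites and 217, 186 and 263 at 26-30 somites. The early arrays were the 3 lowest, and the first step was 0.71 ± 0.23 (limma, unadjusted p = 0.00849, adjusted p = 0.348), while the second was -0.30 ± 0.23 and the whole 0.41 ± 0.23. A dimmer Ezh1 probe set gave -0.15 in the first step and 0.026 over the interval, with overlapping early and late groups.

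Ezh2, the methyltransferase of dividing progenitors, gave 4105, 3357 and 3699 at 16-20 somites, 4964, 3193 and 4064 at 21-25 somites and 3832, 4529.9 and 3853 at 26-30 somites, with overlap of every stage and a difference of 0.13 ± 0.22 (95% interval -0.35 to 0.61). The log2 ratio of Ezh1 to Ezh2 was 0.28 higher at the late stage, with overlapping arrays (exact permutation test, two-sided, p = 0.2, adjusted p = 0.267 over the 4 pairs). Eed, which reads the mark that PRC2 makes, differed by 0.060 and Suz12, its scaffold, by 0.29.

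The HP1 proteins bind methylated lysine in heterochromatin. Cbx5 (HP1-alpha) gave 1265, 1488 and 1652 at 16-20 somites, 2047, 1040.0 and 1943 at 21-25 somites and 2526, 2329.7 and 1692 at 26-30 somites. Late arrays were all above the early ones, by 0.55 ± 0.28 (limma, unadjusted p = 0.0728, adjusted p = 0.469), but 1 of its 4 further probe sets above the filter had the other sign, -0.62. On that probe set all late arrays (511, 733 and 643) were below all early ones (999, 813 and 1128). Cbx1 (HP1-beta) gave 2952, 2223 and 3025 at 16-20 somites, 2904, 5123 and 3220.3 at 21-25 somites and 2858, 2934 and 4220.5 at 26-30 somites, with replicate 2 of 21-25 somites and replicate 3 of 26-30 somites high, and a difference of 0.28 ± 0.27, or 0.096 without the latter array. Further Cbx1 probe sets above the filter gave 0.38, 0.17, 0.015 and -0.23, with overlapping groups. The log2 ratio of Cbx5 to Cbx1 was 0.28 higher at the late stage, with overlap (exact permutation test, two-sided, p = 0.6, adjusted p = 0.6).

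Cbx3 (HP1-gamma) had on its own only a dim probe set, with 108, 152 and 163 at 16-20 somites, 130.1, 87.4 and 133 at 21-25 somites and 96.1, 143 and 119 at 26-30 somites and a difference of -0.20 ± 0.25. It was also named, together with a pseudogene, by 4 probe sets that were left out. Their mean signals were 5206, 5587, 14553 and 21.2, and their differences 0.34, 0.49, 0.0056 and -0.67, so the sign for Cbx3 varied with the probe set read.

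**Figure D2:**
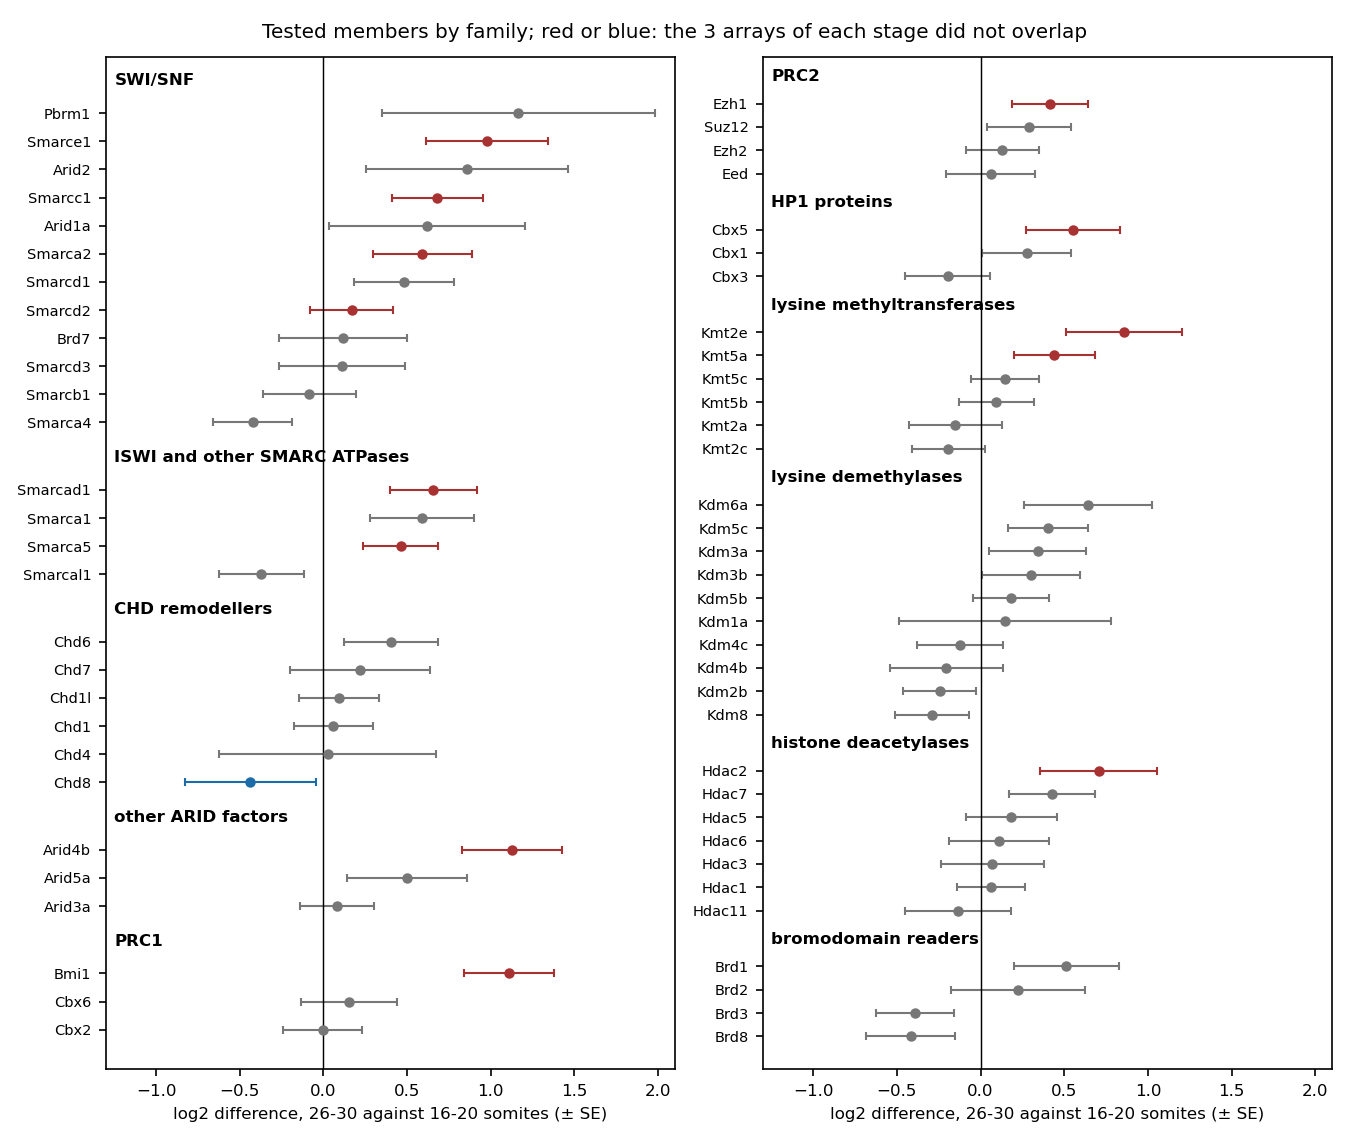
Log2 difference ± SE (limma) from 16-20 to 26-30 somites for the 62 tested members, grouped into 11 families; red marks members with all late arrays above all early ones, blue the reverse, grey an overlap. Red points number 13 and the only blue one is Chd8, most members sit right of 0, and none passed the adjusted threshold.

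Writers and erasers of lysine methylation varied among themselves. Of 6 tested methyltransferases 4 had positive differences, Kmt5a, which monomethylates histone H4, among them (0.44 ± 0.24, with signals of 529.6, 541 and 429 early and 630.3, 766 and 665 late). Kmt2a (MLL), which maintains Hox expression, gave 256, 237 and 249 at 16-20 somites, 443, 211 and 282 at 21-25 somites and 163, 270.2 and 242 at 26-30 somites. Its groups overlapped, the highest array being replicate 1 of 21-25 somites, and its differences were -0.15 ± 0.28 over the interval and -0.40 ± 0.28 in the second step, the latter -0.13 without replicate 1 of 21-25 somites. Kmt2c was the one tested member whose late arrays (126, 133 and 152) were all below those of 21-25 somites (204, 169 and 159). Kmt5b (0.095) and Kmt5c (0.15), which add further methyl groups to the same residue as Kmt5a, overlapped over the interval, and Kmt2d was too dim to test.

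Of 10 tested demethylases 6 had positive and 4 negative differences, with a median of 0.16 and no non-overlapping pair of early and late groups. Kdm6a, which removes the PRC2 mark, had signals of 257, 176 and 155 at 16-20 somites, 423, 111 and 172 at 21-25 somites and 307, 407 and 248 at 26-30 somites. Replicate 1 of the early stage lay above replicate 3 of the late one, and the difference was 0.64 ± 0.38. Kdm8 gave 214, 159.5 and 171 at 16-20 somites, 175, 164 and 189.8 at 21-25 somites and 126, 137 and 168 at 26-30 somites and Kdm2b, which brings a PRC1 variant to CpG islands, 2736, 2277 and 1860.4 at 16-20 somites, 2332, 2044 and 2258 at 21-25 somites and 2044, 2107 and 1613 at 26-30 somites. These were the tested members with the lowest values of the family over the interval, -0.29 ± 0.22 and -0.24 ± 0.22, both with overlap. Without replicate 1 of 16-20 somites they were -0.18 and -0.11. Others were Kdm5c 0.40, Kdm3a 0.34, Kdm3b 0.30, Kdm5b 0.18, Kdm1a (LSD1) 0.15, Kdm4c -0.12 and Kdm4b -0.21 as log2 differences over the interval. Kdm1a had its lowest signal, 160.2, on replicate 2 of 21-25 somites, with 776 to 1635 elsewhere.

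Histone deacetylases, which take off acetyl groups, had 6 of 7 positive differences and a median of 0.11. Hdac2, a class I enzyme of the NuRD, SIN3 and CoREST complexes, gave 488, 458 and 582 at 16-20 somites, 1002, 313 and 709.6 at 21-25 somites and 914, 1005 and 650.4 at 26-30 somites. All late arrays were above the early ones, by 0.70 ± 0.35 (limma, unadjusted p = 0.0671, adjusted p = 0.466). Its partner Hdac1 gave 1819, 1599.8 and 1757 at 16-20 somites, 1934, 1463 and 1823 at 21-25 somites and 1988, 1786 and 1639 at 26-30 somites, a narrow span with overlapping stages and a difference of 0.061 ± 0.20 (95% interval -0.38 to 0.51).

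The log2 ratio of Hdac2 to Hdac1 was 0.64 higher at the late stage with no overlap (exact permutation test, two-sided, p = 0.1, adjusted p = 0.2 over the 4 pairs). Hdac7, a class IIa enzyme known from endothelium, had signals of 182, 193 and 221 at 16-20 and 437, 240.1 and 363 at 21-25 somites, a first step of 0.69 ± 0.26 (limma, unadjusted p = 0.0199, adjusted p = 0.386). The summed signal of 5 endothelial markers over the same stages was 786 to 1093 and 917 to 1773, and its part in the Hdac7 values was not tested. The remaining differences over the interval were 0.071 for Hdac3, 0.18 for Hdac5, 0.11 for Hdac6, a tubulin deacetylase, and -0.14 for Hdac11.

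**Figure D3:**
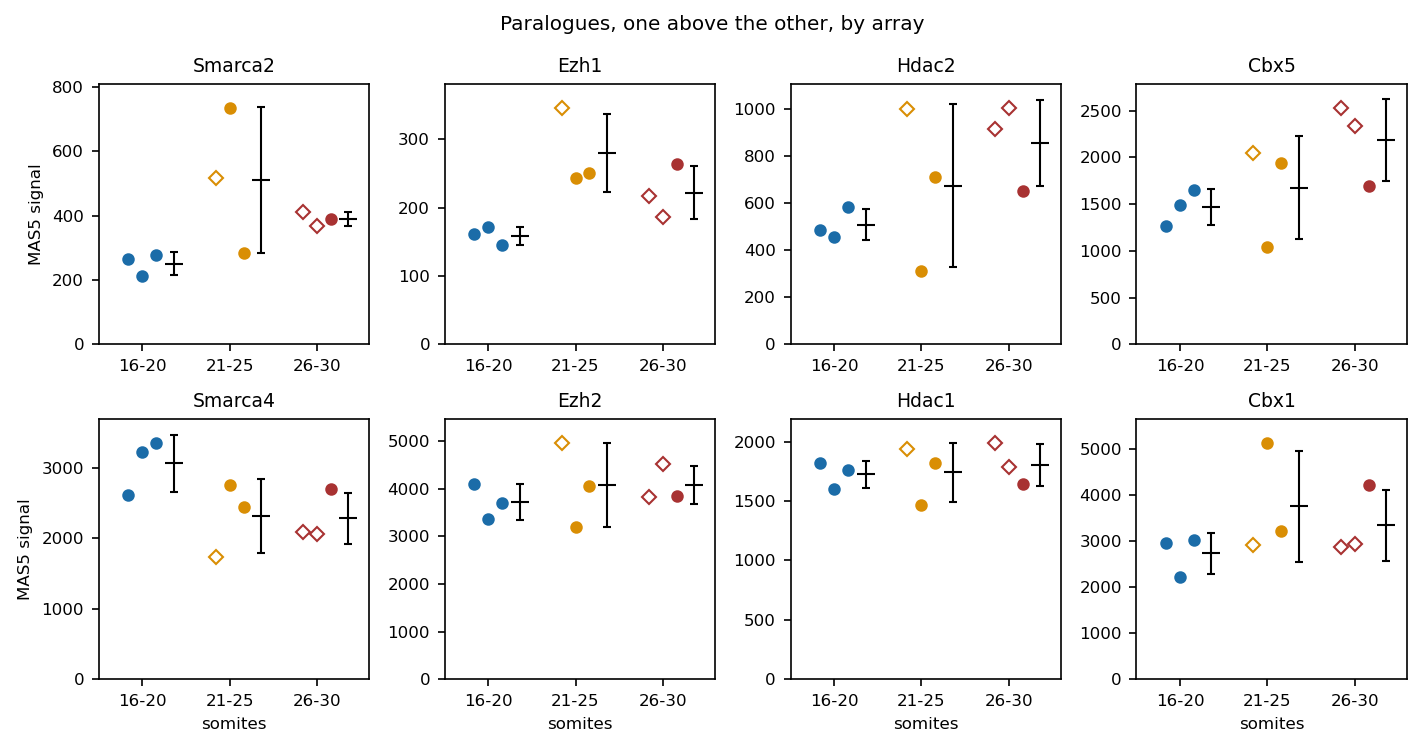
MAS5 signal (linear axis from 0) on each array by somite stage for 4 pairs of paralogues, with Smarca2, Ezh1, Hdac2 and Cbx5 above and Smarca4, Ezh2, Hdac1 and Cbx1 below; open diamonds are the narrow-range arrays and the bar is the stage mean ± SD (n = 3). The upper genes have all late arrays above all early ones, and the lower ones overlap; levels of different genes come from different probe sets and are not comparable.

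Bromodomain readers outside SWI/SNF had the only negative family median, -0.082. Brd3, a BET protein that recruits elongation factors to acetylated chromatin, gave 277, 402 and 380.0 at 16-20 somites, 329, 290.3 and 346 at 21-25 somites and 243, 219 and 329.8 at 26-30 somites, a difference of -0.39 ± 0.23 with replicate 1 of the early and replicate 3 of the late stage in each other's range. A dimmer Brd3 probe set gave -0.37, with all late arrays below all early ones. Brd8, a subunit of the TIP60 acetyltransferase complex, gave 2689.6, 2524 and 4620.2 at 16-20 somites, 3728, 2616 and 3664 at 21-25 somites and 2079.9, 2314 and 2715 at 26-30 somites. Replicate 3 of 16-20 somites was its highest array, and the second step was -0.48 ± 0.27 (limma, unadjusted p = 0.0964, adjusted p = 0.998). Over the interval the difference of Brd8 was -0.42. Its dimmer probe sets above the filter gave 0.34, -0.34 and -0.49 in the second step and, in the same order, 0.31, -0.016 and -0.30 over the interval. Brd1, which docks acetyltransferases of the MOZ family, had signals of 328, 254 and 239 at 16-20 somites, 661, 378 and 315 at 21-25 somites and 416, 560.5 and 269 at 26-30 somites. The replicate 1 array of 21-25 somites was the highest, and its difference of 0.51 ± 0.31 became -0.011 without the 3 narrow-range arrays and 0.28 without replicate 2 of 26-30 somites. The BET protein Brd2 gave 0.22. The ARID genes outside SWI/SNF and beside Arid4b were Arid5a (0.50) and Arid3a (0.080). Members whose mean lay below the filter were Arid3b, Arid5b, Cbx7, Cbx8, Hdac9, Kdm5a, Kdm7a and Kmt2d.

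The first step ran from 16-20 to 21-25 somites. In it Arid4b, Kmt2e, Chd6, Smarca2, Smarcad1, Ezh1, Hdac7, Smarcc1 and Bmi1 had an unadjusted p under 0.05 in the higher direction, 9 members or 14.5%, beside 5.68% of all tested genes, and Smarcb1 was lower, beside 5.38%. No member (0%) and no gene (0%) passed the adjusted threshold, and the smallest adjusted p of a member was 0.325. Differences were positive for 44 of 62 (71%, beside 50.2%) and negative for 18 (29%, beside 49.8%), with a median of 0.13 against 0.0015 over all genes, and 8 members had all arrays higher (12.9%, beside 6.94%) and 0 all lower (beside 7.3%). In the second step, from 21-25 to 26-30 somites, signs were even, 31 of 62 positive (50%, beside 50.9%) and 31 negative (beside 49.1%), with medians of 0.0069 over members and 0.0065 over all genes, and 1 member, Smarce1 at 0.80 ± 0.36 (limma, unadjusted p = 0.0492, adjusted p = 0.998), had a p under 0.05, beside 2.02%, with 0 lower beside 2.05%. Bmi1, Smarcb1 and Arid5a had all arrays higher in that step (4.84%, beside 4.51%), and Kmt2c all lower (1.61%, beside 4.84%).

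The difference between the steps was tested itself, and 4 members, Chd6, Ezh1, Smarca2 and Smarcb1, had an unadjusted p under 0.05 (6.45%, beside 6.32%), with 0 passing after adjustment (beside 0%). Chd6, Ezh1 and Smarca2 had a positive first and a negative second step, and Smarcb1 the reverse. In the moderated F test over the 3 stages, 8 members had an unadjusted p under 0.05 (12.9%, beside 9.76%), namely Arid4b, Bmi1, Chd6, Ezh1, Kmt2e, Smarca2, Smarcad1 and Smarce1, and 0 after adjustment (beside 0%). The steps share the 21-25 somite arrays, so their values are not independent.

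The values of the families moved with single arrays. Of the 62 tested members, 25 had their highest signal on replicate 1 of 21-25 somites (40.3%, beside 21.9% of tested genes) and 22 their lowest on replicate 2 of the same stage (35.5%, beside 21.1%). On 1 of the 3 narrow-range arrays 43 members had their highest signal, 69.4% beside 38.9%. The same 3 arrays had actin 3′ to 5′ ratios of 20.9 to 22.2 and Gapdh ratios of 16.0 to 21.0, the lowest 3 of the 9 for each control, beside 22.4 to 45.3 and 21.6 to 40.9 on the other 6, and the part of RNA quality in the members' values was not tested. Expressed as the median deviation of the 62 members from their own means, the 9 arrays read -0.14, -0.15 and -0.089 at 16-20, 0.34, -0.26 and 0.089 at 21-25 and 0.032, 0.29 and -0.036 at 26-30 somites. The early stage was thus the most uniform, and the later ones spread on both sides of 0. Without replicate 1 of 21-25 somites 27 members were positive in the first step (43.5%, beside 45.6% of all tested genes), with a median of -0.028 against -0.039, and without replicate 2 it was 57 (91.9%, beside 53.9%), with 0.34 against 0.044. In the second step the counts were 41 (66.1%, beside 54.1%) and 16 (25.8%, beside 47.1%), with medians of 0.17 and -0.13.

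**Figure D4:**
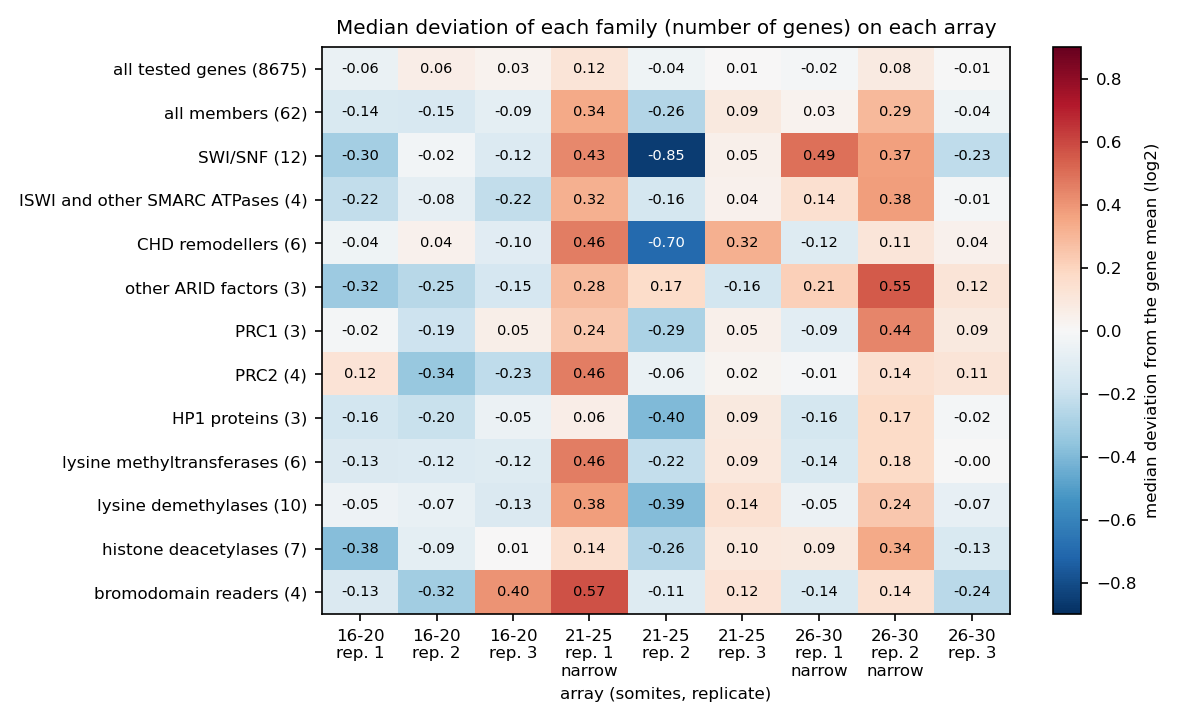
Heat map of the median log2 deviation of each family's tested members from their own means on each of the 9 arrays (columns, by stage and replicate; red above and blue below the mean, with the value printed in each cell). Replicate 1 of 21-25 somites is red and replicate 2 blue in most rows, -0.85 for SWI/SNF on the latter.

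Without the 3 narrow-range arrays, a comparison chosen after seeing the data that leaves 1 array at 26-30 somites, 33 of 62 tested members were positive over the interval (53.2%, beside 49.5% of all tested genes) with a median of 0.072, and 0 had an unadjusted p under 0.05 in the higher direction, beside 1.37%. In the first step 27 were positive (43.5%, beside 45.6%), as without replicate 1 of 21-25 somites alone. The 6 leading members kept a positive sign, at 0.93 for Bmi1, 0.82 for Arid4b, 0.70 for Smarce1, 0.58 for Smarcad1, 0.56 for Kmt2e and 0.23 for Smarcc1. Without replicate 2 of 16-20 somites alone, Bmi1 was at 0.84, Smarce1 at 0.70, Smarcad1 at 0.46 and Kmt2e at 0.62. These were their lowest values with 1 array left out. For Arid4b the lowest was 0.92, without replicate 3 of 16-20 somites, and for Smarcc1 0.48, without replicate 1 of 26-30 somites. Leaving out 1 array at a time, the count of members higher at a p under 0.05 over the interval was 2 without replicate 2 of 26-30 somites (beside 2.88% of all tested genes), 4 without its replicate 1 (beside 3.38%), 11 without its replicate 3 (beside 7.52%) and 10 without replicate 2 of 21-25 somites (beside 8.52%). It was 1 when a gene's probe sets were averaged (beside 5.05%). For the first step the count of 9 became 3 without the narrow-range arrays (beside 2.47%), 5 without replicate 2 of 16-20 somites (beside 3.86%), 14 without replicate 2 of 21-25 somites (beside 8.82%) and 2 with averaged probe sets (beside 4.25%). The second-step difference of Smarce1 was 0.35 without replicate 2 of 21-25 somites. Its unadjusted p was no longer under 0.05 without replicate 3 of 16-20, replicate 2 of 21-25 or replicate 1 or 2 of 26-30 somites, and without replicate 1 of 21-25 somites 6 members were counted (beside 5.82%). With arrays weighted by their fit to the stage means, from 0.335 for replicate 2 of 21-25 to 3.38 for replicate 1 of 26-30 somites, 731 of all tested genes (8.43%) and 5 members (8.06%) passed the adjusted threshold over the interval: Bmi1 (1.23, adjusted p = 0.0126), Arid4b (1.32, adjusted p = 0.0130), Smarcc1 (0.90, adjusted p = 0.0282), Kmt2e (0.93, adjusted p = 0.0309) and Smarce1 (0.93, adjusted p = 0.0358). A fit with each array's 99th percentile of signal as a covariate was also chosen after seeing the data. In it 35 of 62 members were positive over the interval (56.5%, beside 46.3% of all tested genes). The median was 0.059, against -0.029 over all tested genes, and 2 members were higher at an unadjusted p under 0.05 (3.23%, beside 3.95%). In the first step 33 were positive (53.2%, beside 46.8%), with a median of 0.012. The part of the signal range in these values was not tested further. The typical spread of a member within a stage, a median SD of 0.349 on the log2 scale, was close to that of all tested genes, 0.329.

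A gene's probe sets did not always point the same way. Of 25 tested members with a further probe set above the filter, 15 had all of them of one sign over the interval, Bmi1, Smarca5, Smarcad1 and all 3 PRC2 genes with such probe sets among them, and 10 had at least 1 of the other sign, namely Arid1a, Arid4b, Brd8, Cbx1, Cbx5, Hdac11, Pbrm1, Smarca2, Smarcb1 and Smarce1. Only signs were compared, and a shared sign could go with unlike sizes, as for Smarcad1 (0.66 and 0.045) and Ezh1 (0.41 and 0.026).

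**Figure D5:**
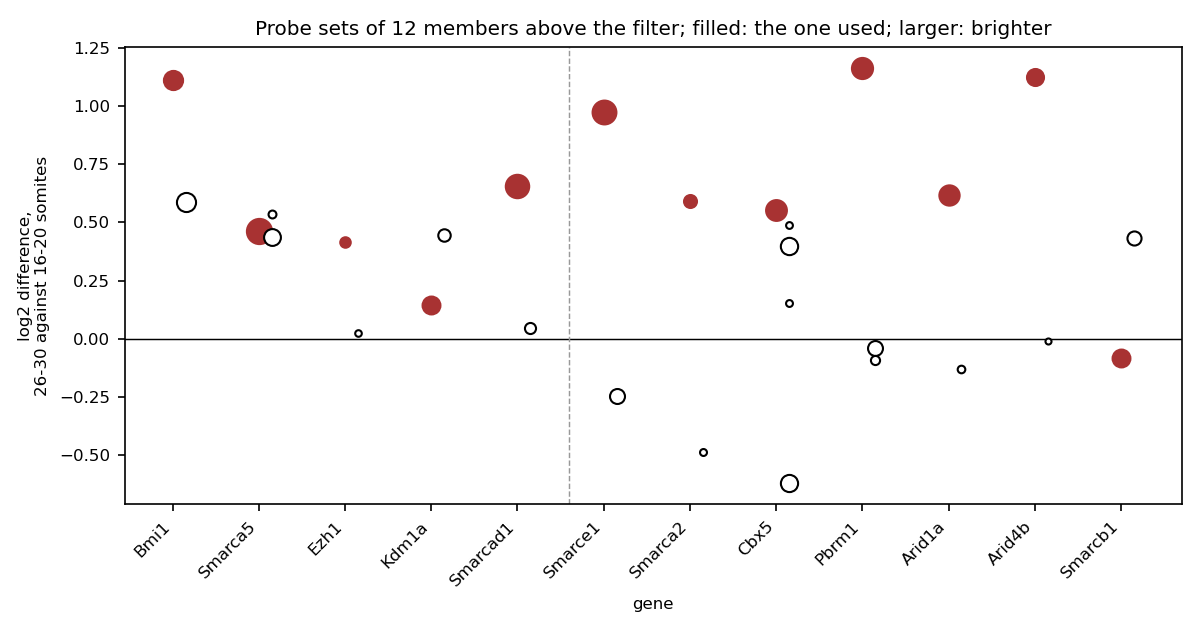
Log2 difference from 16-20 to 26-30 somites for every probe set above the filter of 12 members; filled points are the probe sets used, larger points are brighter, and a dashed line separates genes with one sign from those with both. Bmi1 (1.11 and 0.59) lies wholly above 0, while Smarce1 (0.98 and -0.25) and Cbx5 (0.55 to -0.62) straddle it.

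Other chromatin genes, listed by function and outside the naming rule, were read the same way, with 0 called in any list at an adjusted p under 0.05. Of 12 tested Polycomb genes 9 had positive differences over the interval, with a median of 0.34, of 10 SWI/SNF and ISWI partners 7 (0.13), of 7 histone acetyltransferases 6 (0.34), of 13 sirtuins and deacetylase corepressors 10 (0.16), of 11 other histone methyltransferases and MLL partners 7 (0.26), and of 4 DNA methylation genes 3 (0.36). Dnmt3a, a de novo DNA methyltransferase, went from 705 ± 256 to 1239 ± 99.1 (SD, n = 3), a difference of 0.86 ± 0.28 with no overlap (limma, unadjusted p = 0.0087, adjusted p = 0.346). Carm1, an arginine methyltransferase, had 997 ± 207 and 1722 ± 148, a difference of 0.79 ± 0.22 with no overlap (limma, unadjusted p = 0.00357, adjusted p = 0.327). Hat1, which acetylates newly made histone H4, was lower on all late arrays, at 852 ± 78.4 against 1389 ± 184, a difference of -0.68 ± 0.21 (limma, unadjusted p = 0.00636, adjusted p = 0.346). The others with the widest values in their lists were Uhrf1 (0.45), Kat2a (0.53), Phc2 (0.62), Yaf2 (0.55), Baz2b (0.72), Actl6a (0.49), Men1 (0.65), Mta2 (0.67) and Sirt1 (0.55), with adjusted p between 0.395 and 0.615.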

How the data were processed

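RNA from pooled mid-foregut was measured on 9 arrays in 3 somite stages. The deposited values are MAS5 intensities on a linear scale (tool named in the submitters' processing notes), with version and scaling target not given in the sources used here. Among 22690 probe sets, 64 were controls; the platform annotation gave 1 symbol for 20380, several for 691 and none for 1555. Amplified RNA favours 3′ ends, so probe sets of a gene can differ. A gene was read from its probe set with the highest mean. Signals plus a pseudocount of 26.2, the 20th percentile, were taken to log2; genes with a mean over all arrays under the 30th percentile were not tested, leaving 8675. A model with 1 mean per stage was fitted over the 9 arrays with limma 3.58.1 in R 4.3.3 (lmFit, eBayes with a trend), two-sided, with Benjamini-Hochberg adjustment at 0.05; the script was tested on simulated data. The number of arrays limits the precision. The labels call replicates biological, and that each array is a pool of its own is read from this wording alone. The p-values measure the spread between arrays, which includes that of amplification and hybridisation. All 70 members matched a RefSeq gene ID, with 0 symbols differing.

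Members, lists and tests were chosen with earlier results of these data known. Values array by array are given for the 6 members with the smallest p in each direction over the interval, 3 in each direction per step, the widest of each family, and paralogues of a complex slot. Alternatives were quantile normalization, median centring, pseudocounts of 6.55 and 104.8, no filter or the 50th percentile, no trend, array weights, a replicate block, the mean of all probe sets, only the 6 arrays compared, and each array left out. Added after seeing the data were the exact permutation tests of 4 paralogue ratios, a fit without the 3 narrow-range arrays and one with each array's 99th percentile as a covariate.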

Additional observations from a re-analysis of the deposited data

How the results depend on the processing

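With no member called after adjustment in the main analysis, the settings bear mainly on signs and counts. Array weights gave 731 genes and 5 members over the whole interval, 29 genes in the second step, and 339 genes and 2 members for any difference between stages. Fitting only the 6 arrays compared gave 4 genes over the whole interval and 13 members higher at an unadjusted p under 0.05, beside 9.53% of all tested genes. With each array's 99th percentile as a covariate 1 gene was called over the interval, 1 in the first step and 1 for any difference, and 1 in the first step without the 3 narrow-range arrays; both settings were chosen after seeing the data. Leaving out 1 array gave 0 to 1 genes over the interval, 0 to 3 in the first step, 0 to 3 for second minus first step and 0 to 2 for any difference. Members with a positive difference numbered 35 to 48 over the interval, with a median of 0.10 to 0.25, 27 to 57 in the first step (27 also without the narrow-range arrays) and 16 to 41 in the second, and the first-step median ran from -0.028 to 0.34, the cause of which was not tested.

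Over the interval the sign turned under at least 1 setting for 27 of the 62 tested members, 7 of which differed by 0.2 or more in the main analysis. Among the members given array by array, without the 3 narrow-range arrays Brd1 was at -0.011, Brd7 at -0.35 and Hdac1 at -0.071 over the interval; with the covariate Brd7 was at -0.26, Ezh2 at -0.016 and Hdac1 at -0.026; with the mean of all probe sets Smarcb1 was at 0.17. With 1 array left out the ranges were -0.012 to 0.35 for Brd7, -0.0097 to 0.13 for Hdac1, -0.28 to 0.042 for Kmt2a, -0.29 to 0.066 for Smarcb1 (0.0089 without replicate 3 of 26-30 somites) and -0.74 to 0.12 for Brd7 in the first step. The cause was not tested.

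Same-numbered arrays of different stages had deviations correlated between -0.28 and 0.26, and arrays of different numbers between -0.52 and 0.44. Deviations from means of 3 arrays cannot show whether the numbers pair the samples, and the labels name no pairing. With the replicate block the member median stayed at 0.18, 0 genes and 0 members were called over the interval, and 10 members in place of 9 were higher at an unadjusted p under 0.05 in the first step, beside 5.69% of all tested genes. Dim probe sets limit what can be said of 8 members.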
